A study of Mus musculus with 9 samples.

Results

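The genes described here are 38 genes of glycolysis and of the transcriptional response to low oxygen in macrophages of the mouse colon. They were chosen by name, as a list of 38 symbols, and by a normalized count of at least 10 in at least 3 of the 9 libraries. All 38 symbols were in the table of 42454 genes and all 38 met the minimum, among 14404 genes that did. Adm lay nearest the minimum, with a third-highest value of 30.9 and 7 libraries at 10 or more, followed by Ankrd37 (46.6) and Egln3 (109.9). No listed symbol fell short of it, and 37 of the 38 reached 10 in every library.

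RNA was sequenced from lamina propria macrophages sorted as low in Ly6C and positive for MHC class II from the colon of 6-week-old mice. Each of the 3 genotypes, wild type (WT), p47phox-/- and gp91phox-/-, was represented by 3 libraries, and no treatment is named. p47phox (Ncf1) is the cytosolic organizer of the phagocyte NADPH oxidase and gp91phox (Cybb) its membrane-bound catalytic subunit. Strain, sex, pooling of animals and the nature of the alleles are not given in the sources used here. The labels do not say that each library came from a separate mouse, and the p-values therefore cover the variation among these libraries, part of which may be technical.

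Glycolysis breaks glucose down to pyruvate in the cytosol, and lactate dehydrogenase turns pyruvate into lactate, which leaves the cell through monocarboxylate transporters. The transcription factor HIF-1 alpha (Hif1a) is hydroxylated by prolyl hydroxylases (Egln1, Egln3) and degraded when oxygen is present. When oxygen is low, or when macrophages are activated by microbial products, it accumulates and induces glucose transporters, glycolytic enzymes and genes such as Vegfa, Bnip3 and Adm, by binding a short element with the core ACGTG or GCGTG. The surface of the colon lies next to a nearly oxygen-free lumen.

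Recovered reads ran from 31141107 to 52797368 per library. Libraries 2 and 3 of p47phox-/- stood apart, with 14323 and 14268 genes holding a read against 15825 to 18760 in the other 7, and the lowest correlation between log2 profiles within a group was 0.951 for WT, 0.885 for p47phox-/- and 0.977 for gp91phox-/-. Ncf1 was at 9957 ± 918 (SD, n = 3) in WT, 3195 ± 510 in p47phox-/- and 13040 ± 793 in gp91phox-/- (limma log2 fold change of p47phox-/- versus WT -1.65, adjusted p = 0.000348). Genes of chromosome X, Cybb among them, were listed at 0, so the gp91phox-/- label could not be checked. Summed over 15 macrophage markers, normalized counts were 656463 to 870122 in WT, 790254 to 944697 in p47phox-/- and 857293 to 1001800 in gp91phox-/-, with no marker at 0. Markers of other cells differed between the groups. Summed over 7 monocyte markers, levels were 16097 to 23004 in WT, 24791 to 38274 in p47phox-/- and 23030.1 to 29941 in gp91phox-/-. Summed over 10 B cell markers, levels were 14044 to 23957 in WT, 12193 to 20130 in p47phox-/- and 2002 to 2623 in gp91phox-/-, where all 10 fell. Summed over 12 fibroblast and smooth muscle markers they were 7005 to 9196, 11953 to 18591 and 10062 to 12121 in the same order, with 3 of 12 higher in p47phox-/- and 2 of 12 in gp91phox-/- than in WT. For 6 endothelial markers they were 2747 to 5961, 1473 to 2690 and 2235 to 2861, with 1 of 6, Pecam1, lower in p47phox-/-. Pecam1 held most of each sum, at 2144 to 4809, 985 to 1874 and 1708 to 2159 in the same order. All 6 had a negative log2 fold change in p47phox-/- versus WT, and only Pecam1 did so without overlap of libraries. Of 8 dendritic cell markers 4 fell, and of 6 plasma cell markers 3 fell, in gp91phox-/- versus WT. None of the B cell, fibroblast, endothelial, dendritic or plasma cell markers was at 0 in a whole group. Whether these cells contributed to the values below was not tested, and in RNA from a sorted population a lower level can come from fewer cells of a type or from less RNA per cell, which cannot be told apart.

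The 38 genes spanned more than 3 orders of magnitude in level. Divided by the length of the longest RefSeq-linked transcript, Gapdh, the glyceraldehyde-3-phosphate dehydrogenase, stood first in WT at 22656 ± 2512 normalized counts per kilobase (SD, n = 3). It was followed by the last enzyme of the pathway, the pyruvate kinase Pkm (13829 ± 1184), by the aldolase Aldoa (8996 ± 1107), by the enolase Eno1 (6697 ± 1078) and by the lactate dehydrogenase Ldha (6658). The SDs of Eno1 and Ldha overlapped, so their order is not fixed by these data. Hif1a itself ranked 16th at 1381 per kilobase, among libraries at 1161 to 1675, close to the glucose transporter Slc2a1 and the collagen prolyl hydroxylase subunit P4ha1. The lowest levels per kilobase were those of Ankrd37, of the inducible prolyl hydroxylase Egln3 (28.8) and of the vasodilator peptide Adm (15.5). Gapdh, Pkm, Aldoa, Eno1, Ldha, Tpi1, Pgam1 and Mif have near-identical processed copies elsewhere in the genome, so their counts depend on how the authors' counting treated shared reads. As a group the 38 genes held 0.636 to 0.712% of all reads in WT, 0.580 to 0.602% in p47phox-/- and 0.557 to 0.693% in gp91phox-/-.

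**Figure D1:**
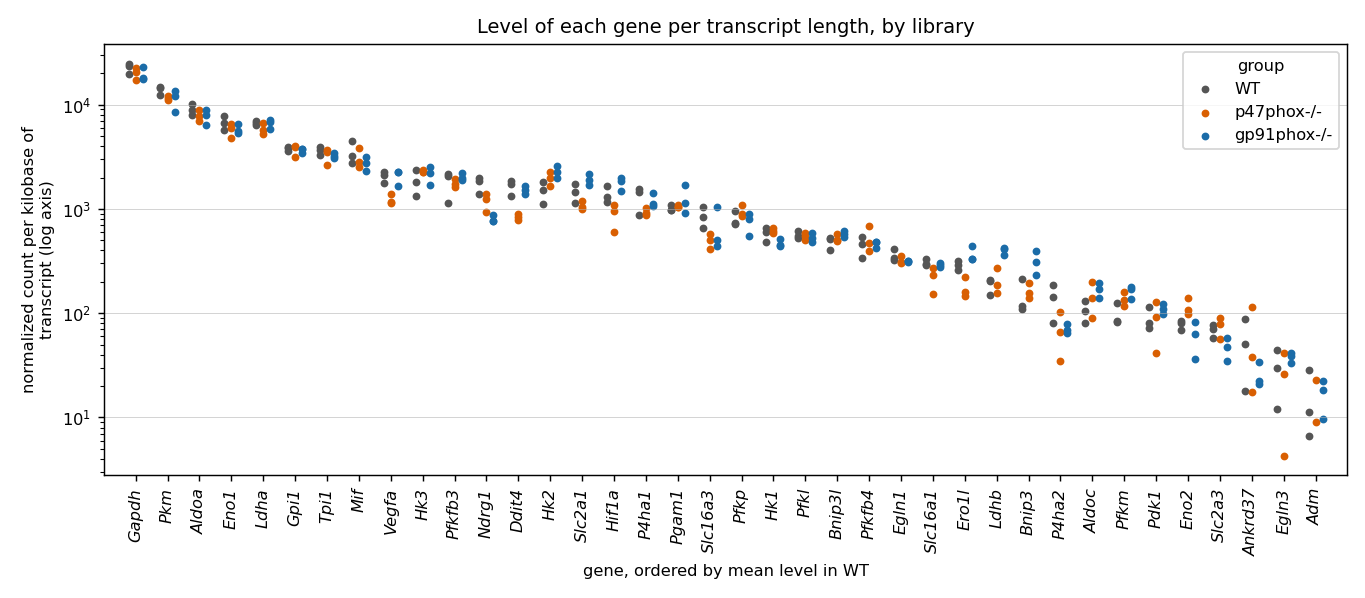
Normalized count per kilobase of transcript (log axis) of the 38 genes, ordered by their mean in WT, with 1 point per library coloured by group. Gapdh (22656 in WT) stands at the left and Adm (15.5) at the right, and the point of Adm in p47phox-/- replicate 3, at 0, cannot be drawn.

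Few of the 38 genes passed the test in either knockout against WT, and 6 were higher in gp91phox-/- than in p47phox-/-. In p47phox-/- versus WT, 0 rose and 2 fell, Vegfa and Ddit4 (5.26% of the 38, against 1.12% of all genes called in either direction, 0.625% higher and 0.5% lower). In gp91phox-/- versus WT, 2 rose, Ldhb and Bnip3, and 1 fell, Ndrg1 (7.89%, against 7.05% of all genes, of which 2.53% higher and 4.53% lower, a share near the background). In gp91phox-/- versus p47phox-/-, 6 were higher, Ero1l, Hif1a, Ldhb, Ddit4, Slc2a1 and Vegfa, and 0 were lower (15.8%, against 9.93% of all genes, of which 3.97% higher and 5.96% lower). The last comparison is also the test of the difference between what the 2 knockouts did relative to the WT libraries they share.

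The counts of 0 come from limma at an adjusted p under 0.05. In p47phox-/- versus WT, 2 of the 38 were higher at an unadjusted p under 0.05, and edgeR and DESeq2 called 0 higher. In gp91phox-/- versus p47phox-/-, 4 were lower at an unadjusted p under 0.05, edgeR called 0 lower, and DESeq2 called Eno2 and Ndrg1 lower. The median log2 fold change of the 38 was -0.15 in p47phox-/- versus WT (all genes -0.02), with 24 negative and 14 positive. It was -0.05 in gp91phox-/- versus WT (all genes 0.01), with 22 negative and 16 positive, and 0.18 in gp91phox-/- versus p47phox-/- (all genes 0.02), with 15 negative and 23 positive. Without gp91phox-/- replicate 1 the median against WT was 0.01. The libraries of the groups did not overlap for 1 higher and 8 lower genes in p47phox-/- versus WT (all genes 9.25 and 8.49%). The same held for 7 higher and 3 lower in gp91phox-/- versus WT (15.1 and 18.2%), and for 9 higher and 3 lower in gp91phox-/- versus p47phox-/- (13.6 and 17.3%).

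**Figure D2:**
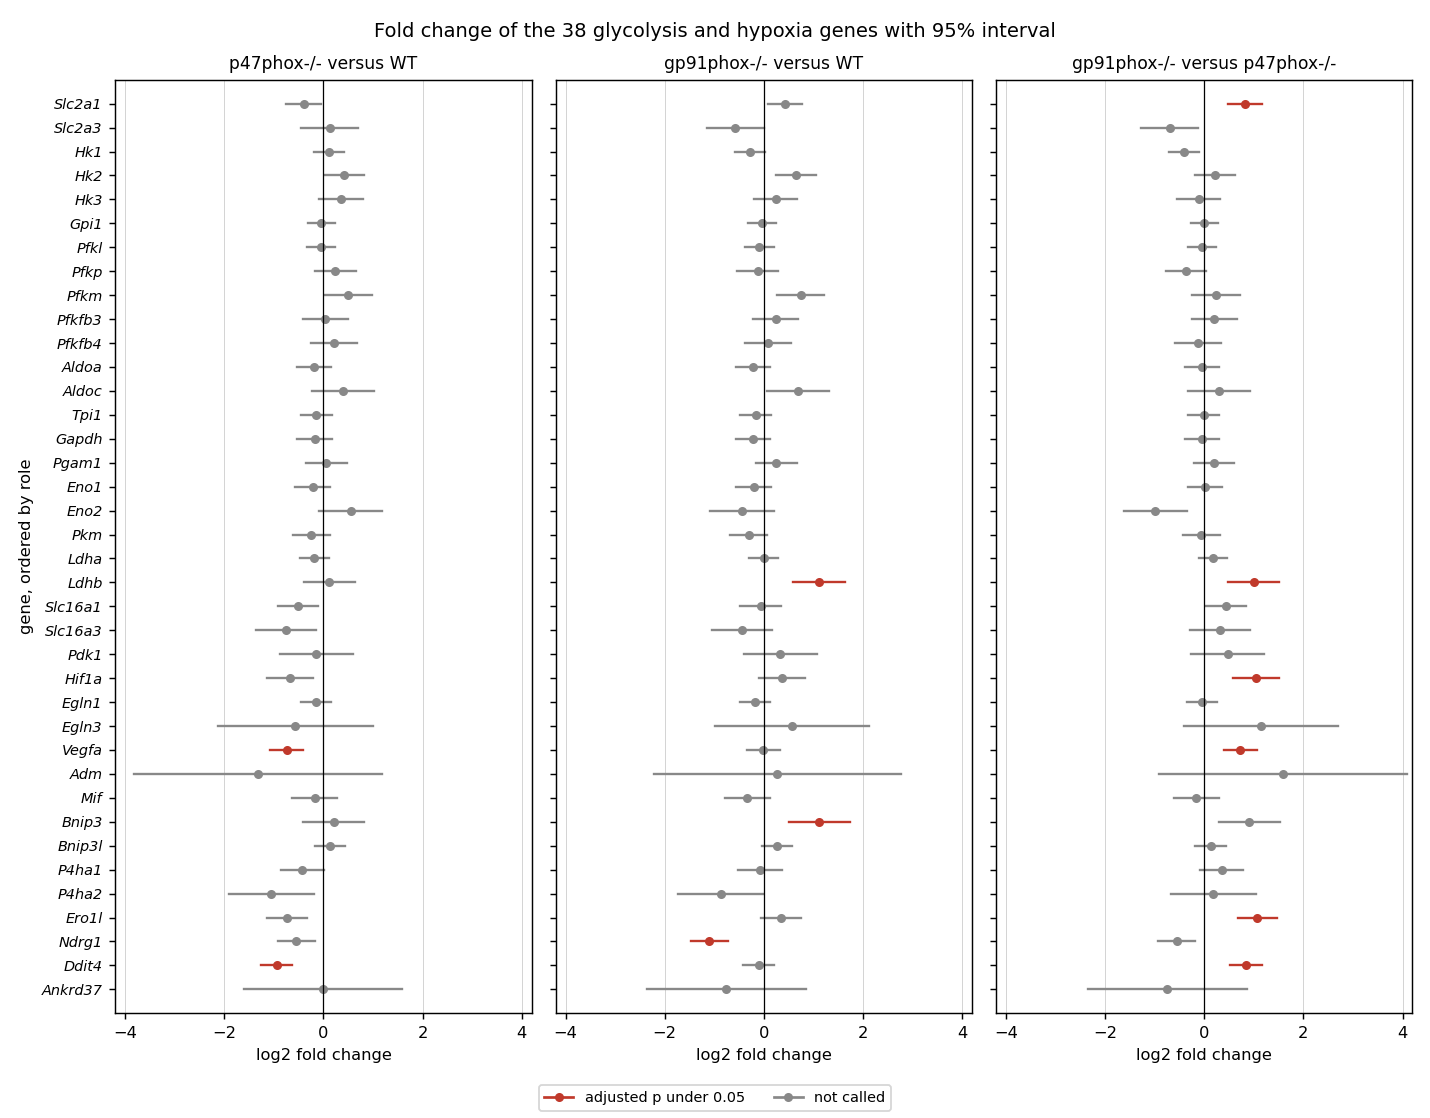
log2 fold change (x axis, from log2 of normalized count plus 1) of each of the 38 genes in the 3 comparisons, with the 95% interval from the limma fit as a line, in red where the adjusted p was under 0.05 and in grey otherwise. Red points are 2 on the left (Vegfa, Ddit4), 3 in the middle (Ldhb, Bnip3, Ndrg1) and 6 on the right, and the intervals of Adm, Egln3 and Ankrd37 are the widest.

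Among glucose transporters, Slc2a1 (GLUT1, the basal carrier that HIF induces) carried most of the transcript. Its normalized counts were 5601, 3732 and 4766 in WT, 3269, 3854 and 3434 in p47phox-/- and 5480.3, 6216 and 7053 in gp91phox-/-. Every gp91phox-/- library stood above every p47phox-/- library, while WT overlapped both. Slc2a1 was 1.77-fold higher in gp91phox-/- than in p47phox-/- (log2 fold change 0.82 ± 0.16, SE, limma adjusted p = 0.00693), and was not called against WT in p47phox-/- (-0.40, adjusted p = 0.265) or gp91phox-/- (0.42, adjusted p = 0.142). Without libraries 2 and 3 of p47phox-/- its adjusted p was 0.0683. Slc2a1 shares 105 exon bases with Gm12868 on the opposite strand, which cannot be separated from it without strand information and for which no value was listed. Slc2a3 (GLUT3) had the opposite sign in gp91phox-/- versus p47phox-/- (-0.70, adjusted p = 0.119) and was not called.

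No hexokinase, phosphofructokinase or fructose-2,6-bisphosphate enzyme was called in the limma fit of all 9 libraries described here or by edgeR, in any comparison. At an unadjusted p under 0.05 stood Hk2 and Pfkm in both knockouts versus WT and Hk1 in gp91phox-/- versus p47phox-/-. Hk2, the inducible hexokinase that traps glucose as its phosphate, was at 9994, 6157 and 8463 in WT, 12518, 9206 and 10906 in p47phox-/- and 10999, 14369.5 and 12450.1 in gp91phox-/-. Its gp91phox-/- libraries did not overlap WT (log2 fold change 0.64, adjusted p = 0.0592). It was called higher in 4 of 22 alternatives, by DESeq2 and by limma with array weights, without WT replicate 1 and without p47phox-/- replicate 2. Pfkm, the muscle-type phosphofructokinase, was at 358, 244 and 239 in WT and at 510.45, 487 and 395 in gp91phox-/-, without overlap (0.74, adjusted p = 0.0649). It was called in 7 of 22 alternatives, which were the 4 that called Hk2, limma with the minimum raised to 50, with only the groups compared, and without libraries 2 and 3 of p47phox-/-. Pfkm shares 359 exon bases with Senp1 on the opposite strand and Gm26513 on the same strand. Senp1 cannot be separated from it without strand information, and strand could not separate Gm26513. Hk1, Hk3, Gpi1, Pfkl, Pfkp, Pfkfb3 and Pfkfb4 had log2 fold changes between -0.40 and 0.35 in the 3 comparisons.

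Of the enzymes from aldolase to pyruvate kinase, Aldoa, Tpi1, Gapdh, Pgam1, Eno1 and Pkm had log2 fold changes between -0.30 and 0.25 in the 3 comparisons and were not called. The neuronal-type isozyme Eno2 was low, at 235, 227 and 194 in WT, 387, 277 and 300.1 in p47phox-/- and 102, 229 and 175 in gp91phox-/-. Its gp91phox-/- libraries lay below those of p47phox-/- without overlap (log2 fold change -0.99, limma adjusted p = 0.0536), and it was called lower by DESeq2 and by limma with the minimum raised to 50 or without gp91phox-/- replicate 2. The brain-type aldolase Aldoc was above WT in all 3 gp91phox-/- libraries (0.69, adjusted p = 0.187).

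Of the lactate dehydrogenase subunits the less abundant rose in gp91phox-/-. Ldhb, whose tetramers favour the oxidation of lactate to pyruvate, was at 264, 269 and 194 normalized counts in WT, 243, 353 and 205 in p47phox-/- and 476, 540.0 and 547 in gp91phox-/-. The 3 gp91phox-/- libraries lay above the other 6. Ldhb rose 2.16-fold in gp91phox-/- versus WT (log2 fold change 1.11 ± 0.24, SE, limma adjusted p = 0.0138) and was 2.00-fold higher than in p47phox-/- (1.00 ± 0.24, adjusted p = 0.021). Leaving out WT replicate 3, gp91phox-/- replicate 2 or gp91phox-/- replicate 3 ended the call against WT (highest adjusted p 0.0677). The call against p47phox-/- ended on leaving out p47phox-/- replicate 3, gp91phox-/- replicate 2 or gp91phox-/- replicate 3 (highest adjusted p 0.0822), and also without libraries 2 and 3 of p47phox-/- (0.0613). Ldha, the subunit that favours lactate production, did not pass in the same comparisons (-0.01 and 0.18). The lactate exporters Slc16a1 (MCT1) and Slc16a3 (MCT4) lay below WT in every p47phox-/- library (-0.51, adjusted p = 0.22, and -0.75, adjusted p = 0.229). Slc16a3 was at 1790.3, 2497 and 2168 there and at 3596, 4517 and 2850.1 in WT. Pdk1, which shuts pyruvate out of the mitochondrion by phosphorylating pyruvate dehydrogenase, ranged from 217 to 665 within p47phox-/- alone and was not called.

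Hif1a differed between the knockouts. Its normalized counts were 6164, 5486 and 7915 in WT, 5170.3, 2853 and 4476 in p47phox-/- and 7092, 8829 and 9313 in gp91phox-/-. The p47phox-/- libraries lay below all WT and all gp91phox-/- libraries, and gp91phox-/- overlapped WT. Hif1a was 2.07-fold higher in gp91phox-/- than in p47phox-/- (log2 fold change 1.05 ± 0.21, SE, limma adjusted p = 0.00907), with -0.67 (adjusted p = 0.156) in p47phox-/- and 0.37 (adjusted p = 0.345) in gp91phox-/- versus WT. Its lowest value was in p47phox-/- replicate 2, and without libraries 2 and 3 of p47phox-/- the difference between the knockouts was 0.69 (adjusted p = 0.153), and a constant prior variance also ended the call. Hif1a (chr12:73901375-73947530, plus strand) shares exon bases with an antisense gene, Gm15283, which was listed at 0 to 5.80, and strand use in the counting is not stated. It also shares exon bases with Gm49321, a protein-coding gene of the same strand in the annotation, whose reads strand could not separate. No value was listed under the symbol Gm49321. The prolyl hydroxylases that mark HIF-1 alpha for degradation were not called. Egln1 stayed between 1094 and 1483 in the 9 libraries, and Egln3, itself a HIF target, was at 78.7, 119 and 32.0 in WT, 69.7, 109.9 and 11.4 in p47phox-/- and 103, 89.3 and 110.03 in gp91phox-/- (gp91phox-/- versus p47phox-/- 1.14 ± 0.72, adjusted p = 0.345). Without p47phox-/- replicate 3, which held its lowest count, that difference was 0.20.

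Vegfa, the endothelial growth factor and a classical HIF target, fell in p47phox-/-. It was at 6173, 7357 and 7818 in WT, 4004, 4767 and 3969 in p47phox-/- and 5724, 7774 and 7773 in gp91phox-/-. All 3 p47phox-/- libraries lay below the other 6. The fall was 1.67-fold (log2 fold change -0.74 ± 0.15, SE, limma adjusted p = 0.0401), and Vegfa was 1.66-fold higher in gp91phox-/- than in p47phox-/- (0.73 ± 0.15, adjusted p = 0.0105), with -0.01 (95% interval -0.35 to 0.32) in gp91phox-/- versus WT. The call against WT rested close to the threshold and was lost in 12 of 22 alternatives, 7 of them with a single library left out, namely any WT library, p47phox-/- replicate 1 or 3 or gp91phox-/- replicate 2 or 3 (highest adjusted p 0.186). The call between the knockouts ended on leaving out gp91phox-/- replicate 2 (0.053) or libraries 2 and 3 of p47phox-/- (0.0842), and under a constant prior variance. The other secreted factors were not called. Adm was at 15.7, 39.7 and 9.14 in WT, 12.6, 31.7 and 0 in p47phox-/- and 30.9, 25.3 and 13.4 in gp91phox-/-, so that its log2 fold changes of -1.32 ± 1.15 versus WT and 1.59 between the knockouts rest on p47phox-/- replicate 3. Without that library they were 0.15 and 0.13. The cytokine Mif had log2 fold changes of -0.33 to -0.16.

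Ddit4 (REDD1, a stress-induced inhibitor of the growth kinase complex mTORC1) fell in p47phox-/- with little spread. Its normalized counts were 3064, 3219.8 and 2341 in WT, 1381, 1581 and 1474 in p47phox-/- and 2636, 2436 and 2889 in gp91phox-/-. The p47phox-/- libraries lay below the other 6, among which WT and gp91phox-/- overlapped. Ddit4 fell 1.93-fold versus WT (log2 fold change -0.95 ± 0.15, SE, limma adjusted p = 0.00945) and was 1.79-fold higher in gp91phox-/- than in p47phox-/- (0.84 ± 0.15, adjusted p = 0.00343). The call between the knockouts was made in all 22 alternatives run. The call against WT was made in 20 of 22, the exceptions being a constant prior variance and the omission of libraries 2 and 3 of p47phox-/- (log2 fold change -1.04, adjusted p = 0.12).

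Ndrg1, a cytoplasmic protein induced by hypoxia and by differentiation, fell in gp91phox-/-. It was at 5684, 4005 and 5353 in WT, 3995, 3618 and 2699 in p47phox-/- and 2228, 2520.2 and 2212 in gp91phox-/-. The 3 groups did not overlap, with WT highest and gp91phox-/- lowest. The fall was 2.14-fold in gp91phox-/- versus WT (log2 fold change -1.10 ± 0.17, SE, limma adjusted p = 0.00217), a call made in all 22 alternatives. The differences of p47phox-/- from WT (-0.55, adjusted p = 0.155) and of gp91phox-/- from p47phox-/- (-0.55, adjusted p = 0.0646) were not called by limma, and were called in 1 and 4 of 22 alternatives, DESeq2 among them for both. Ndrg1 (chr15:66929318-66969640, minus strand) shares exon bases with Gm17035 and Gm2895 on the opposite strand, which cannot be separated from it without strand information. No value was listed for Gm17035 or Gm2895.

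Bnip3, a mitochondrial protein that tags mitochondria for removal by autophagy, rose in gp91phox-/-. It was at 191, 374 and 208 in WT, 273, 247 and 339 in p47phox-/- and 412, 538 and 691 in gp91phox-/-. The gp91phox-/- libraries lay above the other 6. The rise versus WT was 2.17-fold (log2 fold change 1.12 ± 0.28, SE, limma adjusted p = 0.034), and the difference from p47phox-/- was not called (0.91, adjusted p = 0.0634, called in 3 of 22 alternatives). Leaving out WT replicate 1, WT replicate 3, gp91phox-/- replicate 2 or gp91phox-/- replicate 3 ended the call (highest adjusted p 0.144), as did a fit with a constant prior variance. Its relative Bnip3l (NIX) also lay above WT in every gp91phox-/- library, by a small amount (0.27, adjusted p = 0.304). Bnip3 shares 504 exon bases with Gm45507 on the opposite strand, which cannot be separated from it without strand information and for which no value was listed.

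Ero1l, the endoplasmic reticulum oxidase that drives disulfide formation, had the same order of group levels as Hif1a. Its normalized counts were 1141, 1292 and 1395 in WT, 977, 646 and 709 in p47phox-/- and 1449, 1471 and 1964 in gp91phox-/-. The 3 groups did not overlap, with p47phox-/- lowest and gp91phox-/- highest. Ero1l was 2.11-fold higher in gp91phox-/- than in p47phox-/- (log2 fold change 1.07 ± 0.18, SE, limma adjusted p = 0.00337), with -0.73 (adjusted p = 0.0856) in p47phox-/- and 0.34 (adjusted p = 0.315) in gp91phox-/- versus WT. The fall in p47phox-/- was called in 2 of 22 alternatives, DESeq2 among them. Without libraries 2 and 3 of p47phox-/- its difference was 0.72 (adjusted p = 0.118). P4ha1 and P4ha2, catalytic subunits of collagen prolyl 4-hydroxylase, were not called. P4ha2 was at 419, 184 and 321 in WT, 150.2, 233 and 78.1 in p47phox-/- and 146, 176 and 155 in gp91phox-/- (p47phox-/- versus WT -1.05 ± 0.39, adjusted p = 0.235). The ankyrin-repeat protein gene Ankrd37 ranged from 16.2 to 107 within p47phox-/-, wider than any difference between group means.

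**Figure D3:**
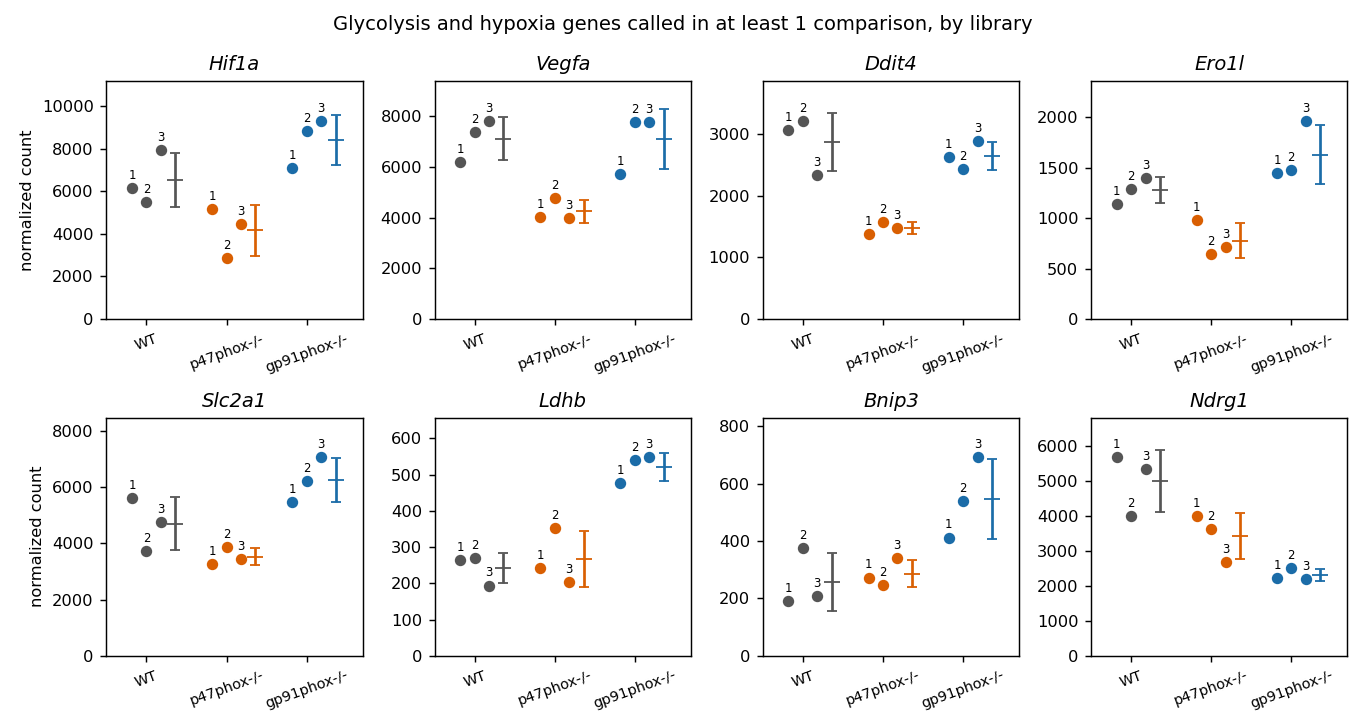
Normalized count (y axis, from 0) of the 8 genes called in at least 1 comparison, with 1 numbered point per library and the mean ± SD of 3 libraries beside them. p47phox-/- is the lowest group for Hif1a, Vegfa, Ddit4 and Ero1l, gp91phox-/- lies above the other 6 libraries for Ldhb and Bnip3, and Ndrg1 steps down from WT to p47phox-/- to gp91phox-/-.

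Ratios within a library do not depend on how libraries were scaled. The Ldhb share of lactate dehydrogenase transcript, per length, was 2.71 ± 0.37% in WT, 3.33 ± 0.62% in p47phox-/- and 5.68 ± 0.16% in gp91phox-/- (SD, n = 3), and no gp91phox-/- library (5.51 to 5.84%) overlapped another group. Hk2 made up 38.2 ± 0.8% of hexokinase transcript in WT, 40.4 ± 4.0% in p47phox-/- and 46.8 ± 0.8% in gp91phox-/-. Hk1 made up 13.4 to 16.5% in WT, 11.5 to 13.5% in p47phox-/- and 7.94 to 12.2% in gp91phox-/-. Hk3, the myeloid hexokinase, held 46.8, 46.9 and 43.4%. The Slc2a3 share of the 2 glucose transporters was 4.64% in WT, 6.48% in p47phox-/- and 2.42% in gp91phox-/-. Pfkm supplied 6.74, 8.38 and 11.5% of phosphofructokinase transcript, with overlapping libraries between WT and gp91phox-/-.

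The log2 ratio of Ldha to Ldhb differed by -1.12 between gp91phox-/- and WT, that of Slc2a1 to Slc2a3 by 1.00 and that of Hk2 to Hk1 by 0.93, each with no overlap between libraries. Each had p = 0.1 in an exact two-sided permutation test, the smallest p that 3 against 3 libraries allow, so no ratio could pass the threshold (adjusted p = 0.35 over 21 tests). Slc2a1 to Slc2a3 differed by 1.52 between gp91phox-/- and p47phox-/-, also without overlap.

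**Figure D4:**
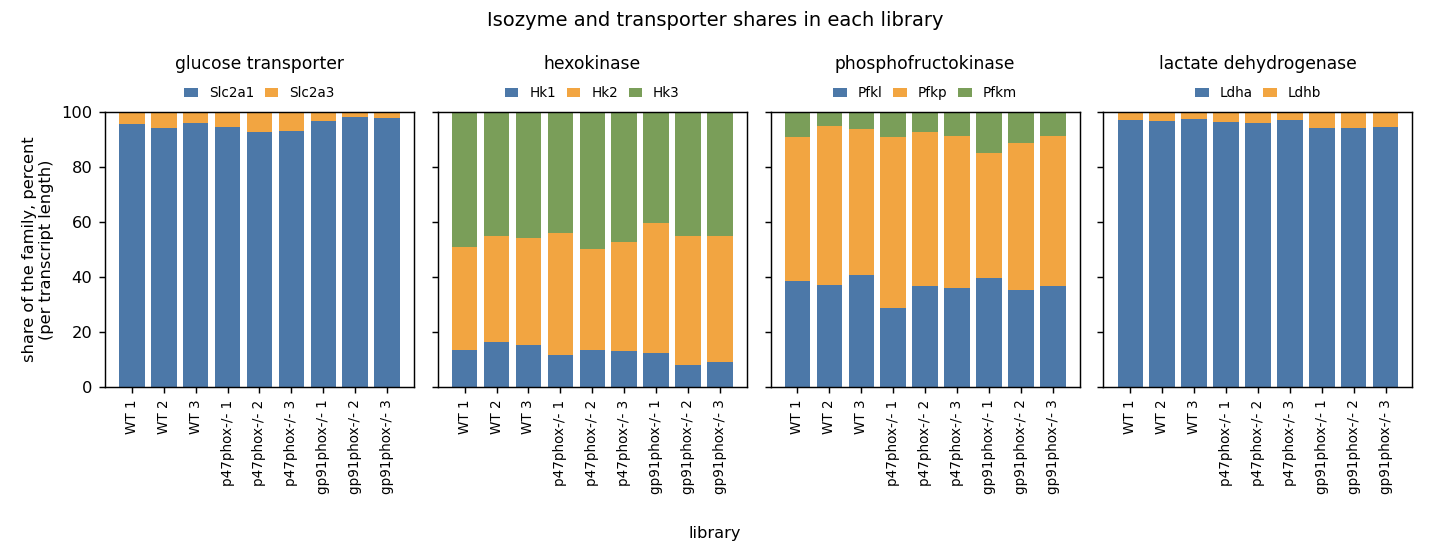
Share (percent, per transcript length) of each isozyme or transporter within its family in the 9 libraries, as stacked bars. The Ldhb part is 5.51 to 5.84% in the gp91phox-/- libraries and at most 3.90% in the other 6, and the Hk2 part is 45.9 to 47.5% in gp91phox-/- against 36.8 to 44.6% elsewhere.

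Promoter sequences are shown for some of the called genes, with matches to the core ACGTG or GCGTG that HIF binds. Whether HIF took part in any difference between the groups was not tested. RefSeq windows of 250 bases before the annotated start (GRCm38.p6) were found for 35 of the 38 genes, 49 windows in all, with Ero1l matched under its current symbol Ero1a. Both strands were searched, and the palindrome CACGTG counts as 2 overlapping matches. ACGTG stood in 24 of the 49 windows (49.0%) and in 16.6% of 32851 promoter windows of all genes. GCGTG stood in 28 (57.1%, all genes 28.2%), and either core in 39 (79.6%, all genes 38.6%). Both cores contain CG, and the median GC content was 60.4% in the windows of these genes and 52.4% in all windows. The 38 genes were chosen by name as genes of glycolysis and of the response to low oxygen. Their share of matches therefore describes the list and is not a result of these libraries. Some windows of the same gene overlap, as in Eno1, Aldoa and Pfkm, so the same match can count more than once. A match is a description of the letters and not a bound site. The windows of Slc2a1, Ldhb, Hif1a, Ddit4 and Bnip3 are printed 5′ to 3′ on the gene's strand up to the first annotated GENCODE exon base of the gene, with matches to either core in capitals.
Slc2a1 (chr4:119108495-119108710, plus strand): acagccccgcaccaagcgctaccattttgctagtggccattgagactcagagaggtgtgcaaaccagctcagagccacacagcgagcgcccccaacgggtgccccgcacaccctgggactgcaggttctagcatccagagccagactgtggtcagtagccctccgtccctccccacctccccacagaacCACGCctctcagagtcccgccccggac
Ldhb (chr6:142507958-142508207, minus strand): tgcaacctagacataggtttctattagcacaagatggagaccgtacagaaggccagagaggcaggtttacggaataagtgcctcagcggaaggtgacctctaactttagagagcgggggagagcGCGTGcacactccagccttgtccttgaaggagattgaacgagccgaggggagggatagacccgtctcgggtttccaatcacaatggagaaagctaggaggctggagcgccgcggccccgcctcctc
Hif1a (chr12:73907617-73907866, plus strand): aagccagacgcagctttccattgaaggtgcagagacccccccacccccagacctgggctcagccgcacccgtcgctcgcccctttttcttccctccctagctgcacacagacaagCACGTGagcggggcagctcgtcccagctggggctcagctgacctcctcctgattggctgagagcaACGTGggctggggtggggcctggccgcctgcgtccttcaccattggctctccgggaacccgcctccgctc
Ddit4 (chr10:59951835-59952020, minus strand): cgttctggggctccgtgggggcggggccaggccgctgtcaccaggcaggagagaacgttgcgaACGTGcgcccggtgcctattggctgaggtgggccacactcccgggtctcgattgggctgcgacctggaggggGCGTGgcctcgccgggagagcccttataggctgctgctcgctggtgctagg
Bnip3 (chr7:138909520-138909756, minus strand): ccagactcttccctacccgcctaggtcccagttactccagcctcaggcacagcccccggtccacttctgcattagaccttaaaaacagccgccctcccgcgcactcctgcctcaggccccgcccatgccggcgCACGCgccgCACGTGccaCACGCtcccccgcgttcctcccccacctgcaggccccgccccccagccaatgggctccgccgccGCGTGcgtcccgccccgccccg
The printed stretches hold 1 match in Slc2a1 and 1 in Ldhb, 3 in Hif1a, 2 in Ddit4 and 5 in Bnip3. The Hif1a window lies inside the span of the GENCODE gene and outside its exons. The second Slc2a1 match of the full window crosses into exon bases. In Vegfa, the window before the gene (chr17:46032378-46032627, minus strand) had 0 matches in 250 bases, with 0 in annotated exons. The other Vegfa window (chr17:46025164-46025413), with 2 matches, lies inside the span of the gene and has annotated exon bases near its beginning. Neither is printed. Ero1l had 3 matches, all in bases that GENCODE annotates as exon, and is not printed. Among genes that limma did not call, the single windows of Gpi1, Tpi1, Eno2 and Mif had 0 matches, those of Pfkp, Pgam1, P4ha1 and P4ha2 had 3 each, those of Slc16a1 and Ankrd37 had 4 each, and 1 of the windows of Ldha had 5.

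Genes of neighbouring pathways were read from lists chosen by function. Of 10 tested enzymes of glycolysis outside the 38, limma called 0 in each comparison, as did edgeR and DESeq2, with 1 lower in gp91phox-/- versus WT at an unadjusted p under 0.05. Pgk1, the phosphoglycerate kinase, lies on chromosome X and was listed at 0. Of 12 tested genes of pyruvate entry into the mitochondrion, limma and edgeR called 0 in each comparison. At an unadjusted p under 0.05 stood 1 to 2 genes per comparison, and DESeq2 called 1 lower in gp91phox-/- versus p47phox-/-. Pdha1 and Pdk3, also in this list, were at 0 in every library and were not tested.

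Among 16 further sugar and lactate transport genes, Emb, the chaperone embigin that brings monocarboxylate transporters to the membrane, was the 1 called. It was at 4868, 4960.1 and 4995 in WT, 2865, 2963 and 2746 in p47phox-/- and 5590.4, 5219 and 6848 in gp91phox-/-. It fell in p47phox-/- (log2 fold change -0.79 ± 0.12, limma adjusted p = 0.0117) and was higher in gp91phox-/- than in p47phox-/- (1.03, adjusted p = 0.000352). Leaving out WT replicate 3 or p47phox-/- replicate 3 ended the call of the fall (highest adjusted p 0.064). Of 9 pentose phosphate genes, the epimerase Rpe was higher in gp91phox-/- than in WT (0.59, adjusted p = 0.0327) and p47phox-/- (0.87, adjusted p = 0.0034), with 858 to 882 in gp91phox-/- against 459.95 to 629 elsewhere. Leaving out any single WT or gp91phox-/- library ended the call against WT (highest adjusted p 0.136). G6pdx, G6pd2 and Tktl1, also in the pentose phosphate list, were not tested, and 2 of the 12 listed genes were at 0 in every library.

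Glycogen genes differed between the knockouts. Of 17 tested, 4 were higher and 1 was lower in gp91phox-/- than in p47phox-/-, 29.4% against 9.93% of all genes. Ppp1r3b, a subunit that targets protein phosphatase 1 to glycogen, was at 179 to 292 normalized counts in WT and 177 to 196 in p47phox-/-, and at 452 to 707 in gp91phox-/- (1.53 ± 0.25 versus p47phox-/-, limma adjusted p = 0.00239). It was also higher than in WT (1.15, adjusted p = 0.0143, and 0.0665 at most on leaving out WT replicate 2 or gp91phox-/- replicate 1). The related subunit Ppp1r3d (1.46, adjusted p = 0.0258) and the liver-type phosphorylase Pygl (0.84, adjusted p = 0.034) were higher and the muscle-type phosphorylase Pygm was lower (-1.99, adjusted p = 0.0106). Leaving out any p47phox-/- library, WT replicate 1 or gp91phox-/- replicate 1 or 3 ended the call of Pygl (highest adjusted p 0.121), and leaving out p47phox-/- replicate 3 or any gp91phox-/- library that of Ppp1r3d (0.1). The fourth higher gene was Ugp2 (0.49, adjusted p = 0.0365), which makes UDP-glucose.

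Of 18 genes of the oxygen-sensing machinery outside the 38, the prolyl hydroxylase Egln2 fell in gp91phox-/- versus WT (-0.62 ± 0.14, limma adjusted p = 0.0216), with 2420.3 to 3293 against 4033 to 5051, and was lower than in p47phox-/- (-0.63, adjusted p = 0.0171). Leaving out gp91phox-/- replicate 1 ended both calls, WT replicate 1 or 2 the first and p47phox-/- replicate 3 the second (highest adjusted p 0.0949). Arntl, the circadian partner protein of the same bHLH-PAS family as HIF, was lower in gp91phox-/- than in p47phox-/- (-0.79, adjusted p = 0.0144), a call ended by leaving out p47phox-/- replicate 3, gp91phox-/- replicate 2 or gp91phox-/- replicate 3 (highest adjusted p 0.0676).

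Of 33 further hypoxia targets, 1 fell in p47phox-/- versus WT and 3 rose and 1 fell in gp91phox-/- versus WT. Angptl4, an inhibitor of lipoprotein lipase, fell in both, from 322, 355 and 572 in WT to 73.0, 112 and 75.3 in p47phox-/- (log2 fold change -2.23 ± 0.31, limma adjusted p = 0.00655) and 135, 100.2 and 89.5 in gp91phox-/- (-1.91 ± 0.31, adjusted p = 0.00279). The lipid droplet protein Hilpda stood at 1729 to 2326 in WT and rose to 3603 to 5562 in gp91phox-/- (1.12 ± 0.20, adjusted p = 0.00563). Nampt, the rate-limiting enzyme of NAD salvage, stood at 3975 to 4897 in WT and rose to 7860 to 15716 (1.21 ± 0.21, adjusted p = 0.004). The ubiquitin ligase subunit Wsb1 rose by less (0.57, adjusted p = 0.0269), and its call ended on leaving out WT replicate 1 or 2 or any gp91phox-/- library (highest adjusted p 0.11). Hilpda and Nampt were also higher than in p47phox-/- (0.79, adjusted p = 0.0292, and 1.12, adjusted p = 0.00559), and leaving out p47phox-/- replicate 1 or 3, gp91phox-/- replicate 2 or gp91phox-/- replicate 3 ended the call of Hilpda (highest adjusted p 0.123). Without libraries 2 and 3 of p47phox-/-, Emb and Rpe were still called in gp91phox-/- versus p47phox-/- (adjusted p = 0.0168 and 0.0411), and the other list genes named above in a comparison with p47phox-/-, Ugp2 not among those refitted, were not (0.0589 to 0.224).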

How the data were processed

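RNA-seq of sorted colon macrophages, 3 libraries per genotype, was analysed. Per the labels' protocols, reads were demultiplexed with bcl2fastq 2.19, trimmed with Cutadapt, aligned to mm10 with STAR 2.5.2b and counted with featureCounts, and the submitters' processing notes name DESeq2. The authors deposited normalized counts (a signal: reads over the library's size factor), from which whole reads could be recovered for 100% of values within 0.01. Strand and annotation are not given in the sources used here. Values were tested as log2(normalized count + 1) in limma 3.58.1 under R 4.3.3, for genes with at least 10 in at least 3 libraries, in 1 fit of the 3 groups with a mean-variance trend and Benjamini-Hochberg adjustment over all 14404 genes, called at an adjusted p under 0.05. Fold changes of low genes are understated by the added 1. The steps were tested on simulated data. The genes and lists were chosen with earlier results of these data known.

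Named were all 38 genes, with values per library for those called and for the 2 with the greatest absolute log2 fold change per comparison, and called genes of the lists with a mean of at least 50, at most 4 per list and comparison. A gene that met this rule is not reported here, though counts over lists and named genes include it. Outside this rule, Hk2, Pfkm, Eno2, Slc16a3 and Ugp2 were given values after these were seen. Positions and transcript lengths are from GENCODE (GRCm38), promoters from RefSeq (GRCm38.p6). The counts of calls, the 38 genes and the list genes named by the rule were recomputed with another pseudocount, filter or scaling, with array weights, with a constant prior variance, with replicate number as a block, with the compared groups alone, with each library omitted, with p47phox-/- libraries 2 and 3 omitted, and, on recovered reads, with edgeR 4.0.16 and with DESeq2 1.42.0. Ratios were recomputed with each library omitted only, and Ugp2, isozyme shares and marker sums under no alternative.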

Additional observations from a re-analysis of the deposited data

Results flagged for a closer look

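Of the 38 genes, 6 changed differently in the 2 knockouts, by the test of gp91phox-/- against p47phox-/- in limma, which equals the difference between their changes from the shared WT libraries. The log2 differences were 1.07 for Ero1l, 1.05 for Hif1a, 1.00 for Ldhb, 0.84 for Ddit4, 0.82 for Slc2a1 and 0.73 for Vegfa, each with 3 of 3 gp91phox-/- libraries above all p47phox-/- libraries. Apart from Ddit4 (0.94, adjusted p = 0.0453), each missed the threshold without p47phox-/- libraries 2 and 3, at differences of 1.10 for Ldhb, 0.93 for Slc2a1 and 0.81 for Vegfa, no smaller than with them, and of 0.72 for Ero1l and 0.69 for Hif1a, which were smaller. In that fit p47phox-/- is 1 library, assumed to vary like the others. Fibroblast and smooth muscle markers summed to 11953 to 18591 in p47phox-/- and 10062 to 12121 in gp91phox-/-, and B cell markers to 12193 to 20130 and 2002 to 2623. In gp91phox-/- versus p47phox-/-, 10 of 10 B cell, 6 of 8 dendritic cell, 3 of 6 plasma cell, 3 of 7 tested T cell and 2 of 12 fibroblast and smooth muscle markers were called lower, and 2 of 10 epithelial markers higher. Dendritic cell markers summed to 5467 to 7060 in p47phox-/- and 1669 to 2269 in gp91phox-/-, and plasma cell markers to 13684 to 20388 and 8533 to 9489. The sums of T cell markers overlapped, at 12853 to 14689 and 10740 to 14851, as did those of epithelial markers, at 1182 to 2724 and 2661 to 5260. Cd4 held most of each T cell sum, at 9503 to 10973 in p47phox-/- and 9516 to 13043 in gp91phox-/-. Of the 7 tested T cell markers, 4 were lower in gp91phox-/- without overlap of libraries and 0 were higher. Among them, Cd2 was at 359 to 739 in p47phox-/- and 30.9 to 65.2 in gp91phox-/-, and Il7r at 2086 to 2245 and 937 to 1710. The part of these cells in the differences was not tested.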

How the results depend on the processing

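Of the 38 genes, 2 were called in p47phox-/- versus WT, and 1 without a filter on low values, with only the groups compared or with array weights, 0 with a constant prior variance (no trend) and 0 without p47phox-/- libraries 2 and 3, and 4 with DESeq2. In gp91phox-/- versus WT, 3 became 5 with array weights and 5 with DESeq2. In gp91phox-/- versus p47phox-/-, 6 became 1 without p47phox-/- libraries 2 and 3. With single libraries left out the counts were 1 to 2, 1 to 5 and 5 to 8 in the same order. The 1 came from leaving out any WT library, p47phox-/- replicate 3 or gp91phox-/- replicate 2 or 3 in the first comparison and WT replicate 3 or gp91phox-/- replicate 2 in the second, and the 5 of the second from leaving out p47phox-/- replicate 2. Of all genes, 162 were called in p47phox-/- versus WT, and 101 with only the groups compared, 52 without a trend, 16 without p47phox-/- libraries 2 and 3 and 678 with DESeq2 (47 to 235 with 1 library left out). For gp91phox-/- versus WT, 1016 became 2319 with array weights, 596 without a trend and 1754 with DESeq2 (520 to 1543). For gp91phox-/- versus p47phox-/-, 1430 became 898 without a trend, 441 without p47phox-/- libraries 2 and 3 and 2276 with DESeq2 (761 to 1661). The cause was not tested, except that fits with fewer libraries have fewer samples. Adm, at -1.32 in p47phox-/- versus WT, ran from -2.37 to 0.15 with 1 library left out, reversing without p47phox-/- replicate 3. Over the named genes, 686 alternatives left the call and direction as they were and 103 lost the call.

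Same-numbered libraries of different groups showed little shared deviation (9 pairs, r = -0.04 to 0.08, 0 over 0.1, 5 of 9 libraries best with their own number). With 3 libraries a group, these correlations do not settle whether same-numbered libraries were processed together, which the labels do not state. With the replicate number as a block, 2, 3 and 6 of the 38 genes and 127, 877 and 1238 of all genes were called, and Rpe in gp91phox-/- versus WT and Pygl in gp91phox-/- versus p47phox-/- were not. With 3 libraries a group, small changes of low genes such as Adm, Ankrd37 and Egln3 were not detectable at this spread.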
